A study of Mus musculus with 2 samples.

Results

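Hemoglobin RNA was measured in 2 single-cell RNA-Seq libraries of mouse hindlimb muscle through 5 genes chosen by symbol. These are the beta globin genes Hbb-bs and Hbb-bt, the alpha globin genes Hba-a1 and Hba-a2, and Alas2, the erythroid enzyme that starts heme synthesis. They are 5 of the 32285 genes in the deposited count matrices, and all 5 were found there and matched to the annotation by gene ID. Values are raw UMIs (unique molecular identifiers, each standing for 1 captured transcript) before any filter on hemoglobin. Both groups were 24-month-old female C57Bl/6J mice that received 3 intramuscular injections into hindlimb muscles. The ATRA+agonist group received all-trans retinoic acid with CD3254, an RXRα agonist, and BMS961, an RARγ agonist, and the DMSO vehicle group received the solvent. Digested muscle was sorted with the dead-cell dye propidium iodide, and lysis of red cells in the sequenced suspension is not given in the sources used here. Each group is a single library pooled from 2 mice, so treatment, animals and library handling cannot be told apart, and nothing here could be tested. Intervals are exact Poisson or Clopper-Pearson intervals at the 95% level and cover counting error only.

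Hemoglobin is a tetramer of alpha and beta globin chains, each holding a heme group. Erythroid precursors make it in the bone marrow. Mature mouse red cells have lost their nucleus, and young ones, the reticulocytes, still carry globin mRNA. Muscle is rich in blood vessels, so red cells enter a digested muscle suspension, and those that break release globin mRNA into the liquid that every droplet encloses. Alpha globin is also known from the endothelium of small arteries, where it takes part in control of nitric oxide. For this reason the values below were read separately for barcodes of red cells, for every cell class and for arterial endothelial cells.

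The genes lie in 2 clusters of near-identical copies and 1 single site (GRCm38, GENCODE M21). Hbb-bs (ENSMUSG00000052305) spans 103826534 to 103828096 and Hbb-bt (ENSMUSG00000073940) 103812524 to 103813996, both on the minus strand of chromosome 7. Hba-a1 (ENSMUSG00000069919) spans 32283511 to 32284465 and Hba-a2 (ENSMUSG00000069917) 32296489 to 32297298 on the plus strand of chromosome 11. Alas2 (ENSMUSG00000025270) spans 150547375 to 150570638 on the plus strand of chromosome X. The coding part of exon 3, the last exon, is printed because 3′ libraries read the transcript end and because it shows how little separates the copies. Capitals mark the base that differs within a pair.
Hba-a1, chr11:32284263-32284391, plus strand: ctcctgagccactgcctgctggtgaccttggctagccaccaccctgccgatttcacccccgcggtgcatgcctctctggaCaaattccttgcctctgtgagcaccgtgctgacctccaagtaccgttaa
Hba-a2, chr11:32297080-32297208, plus strand: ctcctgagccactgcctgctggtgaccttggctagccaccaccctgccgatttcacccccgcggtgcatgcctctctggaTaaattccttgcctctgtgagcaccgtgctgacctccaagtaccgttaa
Hbb-bs, chr7:103826665-103826793, minus strand: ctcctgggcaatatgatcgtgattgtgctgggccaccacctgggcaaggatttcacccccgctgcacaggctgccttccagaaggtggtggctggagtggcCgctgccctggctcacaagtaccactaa
Hbb-bt, chr7:103812656-103812784, minus strand: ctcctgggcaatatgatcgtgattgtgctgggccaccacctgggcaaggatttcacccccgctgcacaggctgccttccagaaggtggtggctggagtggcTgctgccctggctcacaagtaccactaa

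Over the whole coding sequence Hba-a1 and Hba-a2 differ at 1 of 429 bases (C381T, counted from 1 at the start codon), and Hbb-bs and Hbb-bt at 1 of 444 (C417T). Behind the stop codon the alpha copies are identical over the 74 bases that both transcripts hold, while the beta copies differ at 85 of 131 positions when laid side by side without gaps. Of all 90-base windows in the last 300 bases, 57.3% of those of Hba-a1 also occur in Hba-a2, against 24.6% of those of Hbb-bs in Hbb-bt. How reads that match both copies were counted is not given in the sources used here. The split of alpha UMIs between Hba-a1 and Hba-a2 is therefore uncertain, and sums over the alpha genes, the beta genes or all 4 hemoglobin genes carry the results.

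The first question was where the hemoglobin RNA sits. A red cell barcode was defined as a barcode with at least 50% of its UMIs from the 4 hemoglobin genes. In the ATRA+agonist library 2314 of 10444 barcodes were red cell barcodes (22.2%, 21.4% to 23.0%). In the DMSO vehicle library 8125 of 17394 were (46.7%, 46.0% to 47.5%). Per other barcode there were 0.285 and 0.877 red cell barcodes, a 3.08-fold higher value in the vehicle library (log2 ratio of ATRA+agonist over vehicle -1.62, -1.69 to -1.56). The 4 genes held 24.0% of 65197625 UMIs with ATRA+agonist and 50.8% of 109343486 UMIs with vehicle. Red cell barcodes held 98.5% and 98.1% of these hemoglobin UMIs, so that the RNA outside them, 239274 and 1028489 UMIs, was a small remainder in both libraries. The 2 libraries shared 43 barcode sequences, and leaving these out gave 22.1% and 46.7% red cell barcodes.

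**Figure D1:**
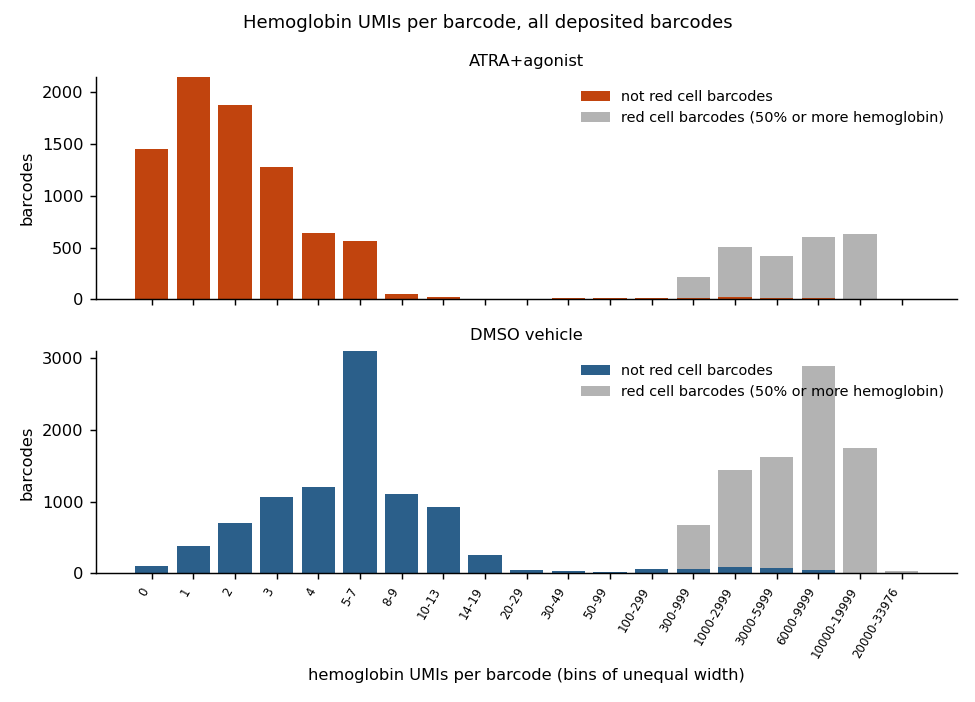
Number of barcodes (vertical axis, linear) by hemoglobin UMIs per barcode (horizontal axis, bins of unequal width) in each library, with red cell barcodes in grey. Barcodes form a low group that ends near 20 UMIs and a high group that starts near 300, and the low group of the DMSO vehicle library (median 5) sits to the right of that of the ATRA+agonist library (median 2).

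The plot of hemoglobin UMIs per barcode showed 2 separate groups with few barcodes between them. Only 50 ATRA+agonist and 164 DMSO vehicle barcodes held 20 to under 300 hemoglobin UMIs, and none of these was a red cell barcode. The share of 50% was also rarely close: 41 and 169 barcodes had between 40% and 60% hemoglobin. In red cell barcodes the median hemoglobin share was 97.2% with ATRA+agonist and 96.9% with vehicle. They carried a median of 6788 and 7284 UMIs, but only 70 and 83 genes and 149 and 182 UMIs that were not hemoglobin. Of them, 81 and 381 had 300 or more genes.

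Within red cell barcodes the 5 genes kept nearly the same order and shares in both libraries. Hbb-bs, an adult beta globin gene, took 50.2% of the UMIs of red cell barcodes with ATRA+agonist and 50.3% with vehicle. Hba-a1 took 21.3% and 20.5%, and Hba-a2 16.3% and 15.2%. Hbb-bt, the other adult beta globin gene, took 8.0% and 8.83%. Alas2 was far lower, at 0.0988% and 0.106%. These are 3′ UMI counts that do not grow with gene length. Hbb-bs, Hba-a1 and Hba-a2 had a UMI in every red cell barcode, and Hbb-bt in 99.2% and 99.5%. Alas2, which was not used to define red cell barcodes, had a UMI in 78.2% of them with ATRA+agonist and 86.4% with vehicle, with medians of 5 and 7 UMIs. The sum of the alpha genes was 39.2% of hemoglobin UMIs in ATRA+agonist red cell barcodes and 37.7% in those of vehicle. The share of Hbb-bt in beta UMIs was 13.7% and 14.9%. Both differences exceeded the counting intervals, which are narrow at this depth, but the spread between animals is unknown.

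Red cell barcodes differed among themselves more than the libraries did. When they were grouped by their own hemoglobin UMIs, Hbb-bt took 1.57% of beta UMIs in ATRA+agonist barcodes with 300 to under 1000 hemoglobin UMIs, and 18.5% in those with 10000 to under 20000. With vehicle these values were 2.62% and 19.1%. Hbb-bt, which differs from Hbb-bs at 1 coding base and in the sequence behind the stop codon, was therefore a minor transcript in poorly loaded barcodes and a sizeable part of beta RNA in well loaded ones. The alpha share went the other way, from 46.5% to 38.4% with ATRA+agonist and from 51.9% to 37.3% with vehicle. Alas2 followed Hbb-bt, with 46.9 against 114 UMIs per 100000 hemoglobin UMIs with ATRA+agonist and 65.0 against 115 with vehicle. Median detected genes were 36 and 131 with ATRA+agonist, and 37 and 154 with vehicle. The split of alpha UMIs varied little, with Hba-a1 between 56.2% and 58.9% of the alpha UMIs in all load groups of both libraries. The load groups use the hemoglobin count itself, so these are descriptions, and depth moves with load.

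**Figure D2:**
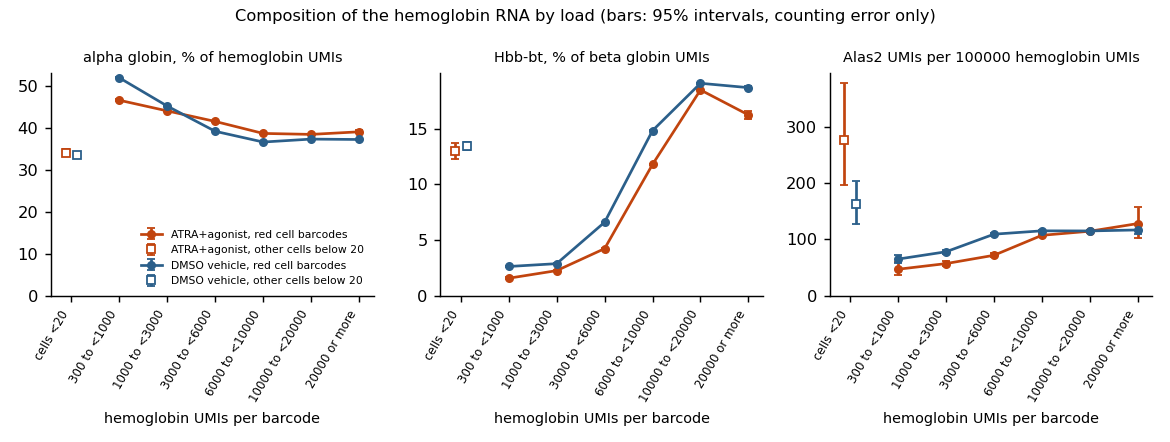
Alpha globin share of hemoglobin UMIs, Hbb-bt share of beta globin UMIs and Alas2 UMIs per 100000 hemoglobin UMIs (vertical axes from 0) by hemoglobin UMIs per barcode (horizontal axis), as filled circles for red cell barcodes and open squares for other kept cells below 20 hemoglobin UMIs, with exact 95% intervals. The Hbb-bt share is below 3% in the 2 lowest load groups and above 16% in the 2 highest, and cells below 20 UMIs lie near 13%.

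Hemoglobin outside red cells had 2 forms. For this, cells with 300 to 5000 genes and under 20% mitochondrial UMIs were kept, without red cell barcodes and without the 7.5% of cells with the highest doublet scores, but with no further hemoglobin limit. This left 7162 ATRA+agonist and 8196 DMSO vehicle cells. Nearly all of them held a few hemoglobin UMIs: the median was 2 (quartiles 1 and 3) with ATRA+agonist and 5 (4 and 8) with vehicle, and 18.0% and 1.06% of cells held none. A few held far more. There were 53 ATRA+agonist cells (0.740%, 0.555% to 0.967%) and 213 DMSO vehicle cells (2.60%, 2.27% to 2.97%) with 300 or more, and these held 90.4% and 92.6% of all hemoglobin UMIs of the kept cells. A sum or mean over all cells of a class is therefore set by a handful of cells, and each result is given for all kept cells and for cells below 20 hemoglobin UMIs. The limits of 20 and 300 UMIs were chosen after the distribution had been seen.

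Cells below 20 hemoglobin UMIs held a mean of 2.00 (1.96 to 2.03) with ATRA+agonist and 5.80 (5.75 to 5.86) with vehicle. Classes are clusters named from fixed marker genes and carry the ending -like. Their order was much the same in both libraries. With ATRA+agonist, muscle fiber-like cells had the lowest mean (1.62, 1.46 to 1.78) followed closely by endothelial-like cells (1.64) and cells of the smooth muscle or pericyte-like class (1.68). MuSC-like cells (muscle stem cells) had 2.31, FAP-like cells (fibro-adipogenic progenitors) 2.43, monocyte or macrophage-like cells 2.74 and dendritic-like cells 3.15 (2.93 to 3.37). With vehicle, smooth muscle or pericyte-like cells had 5.05 (4.81 to 5.29) and endothelial-like cells 5.10 (5.02 to 5.19), and these neighbours were within their intervals. MuSC-like cells had 6.04, FAP-like cells 6.75, monocyte or macrophage-like cells 7.56 and dendritic-like cells 8.80 (8.33 to 9.30). Every class of both libraries that had at least 50 cells carried hemoglobin.

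**Figure D3:**
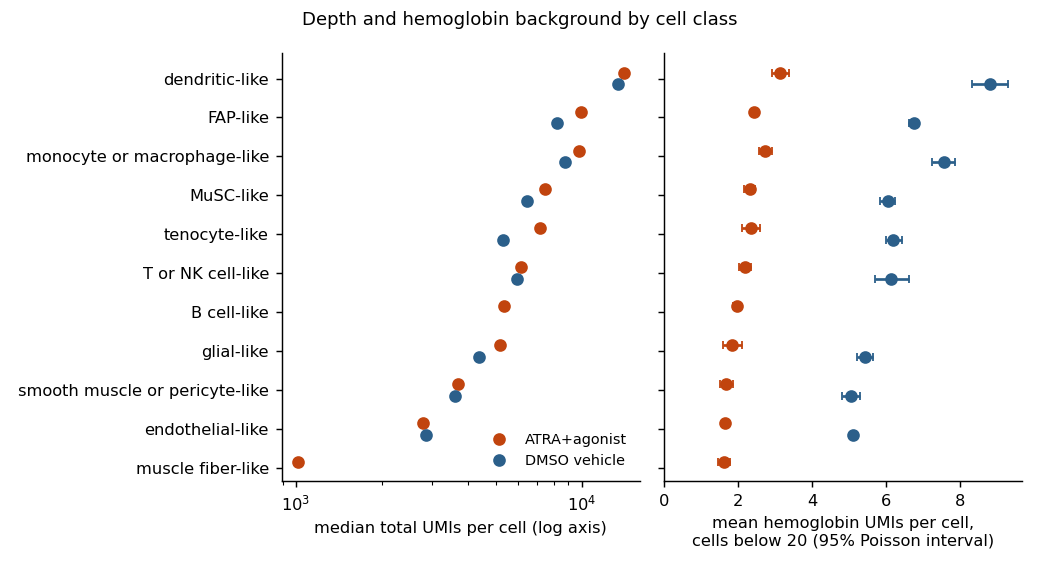
Median total UMIs per cell (left, log axis) and mean hemoglobin UMIs per cell in cells below 20 hemoglobin UMIs (right, linear axis from 0, with 95% Poisson intervals) for each class with at least 50 cells in a library. Median depth spans 13.8-fold over the ATRA+agonist classes and mean hemoglobin 1.95-fold, and every DMSO vehicle class lies to the right of every ATRA+agonist class.

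Depth varied far more between classes than hemoglobin did. Median total UMIs ran from 1016.5 in muscle fiber-like to 14053.5 in dendritic-like cells with ATRA+agonist, a 13.8-fold span, while the hemoglobin mean spanned 1.95-fold. With vehicle the spans were 4.71-fold and 1.74-fold. The same held without regard to class: in 4 equal groups of cells ordered by depth, the shallowest and the deepest had means of 1.39 and 2.81 hemoglobin UMIs with ATRA+agonist, and 4.39 and 7.84 with vehicle. Expressed as CPM (UMIs per 1000000 UMIs of the same cells), the order turned around, from 1147 to 224 CPM with ATRA+agonist and from 3679 to 712 CPM with vehicle. A shallow cell thus had a higher hemoglobin CPM from fewer hemoglobin UMIs. After thinning each cell to 1000 UMIs, which left out 882 and 962 shallower cells, cells with fewer than 20 hemoglobin UMIs before thinning held a mean of 0.440 and 1.39, and 32.4% and 68.0% of them had any. Over all thinned cells, loaded ones included, the mean was 2.82 and 10.5. Of these, 33.4% and 69.4% had a hemoglobin UMI, against 83.8% and 99.3% of the same cells before.

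The spread within a class was wider than that of random draws. The variance of hemoglobin UMIs over their mean, which is 1 for Poisson counts, was 1.13 to 1.63 over ATRA+agonist classes and 1.42 to 1.80 over DMSO vehicle classes in cells below 20. That limit cuts the upper tail, so these values are for the trimmed counts.

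The makeup of the low hemoglobin background varied little over classes, though not always within counting error. The alpha share was 34.0% (33.2% to 34.8%) over ATRA+agonist cells below 20 and 33.6% (33.1% to 34.0%) over DMSO vehicle cells, with overlapping intervals. By class it ran from 30.8% in muscle fiber-like to 35.3% in T or NK cell-like cells with ATRA+agonist, and from 32.0% in FAP-like to 34.9% in T or NK cell-like cells with vehicle. With vehicle the intervals of FAP-like (31.1% to 32.9%) and endothelial-like cells (34.4%, 33.7% to 35.2%) did not overlap. With ATRA+agonist those of the same classes did. The Hbb-bt share of beta was 13.0% and 13.5%. It thus lay slightly below the value pooled over red cell barcodes (13.7% and 14.9%) and far above that of the poorly loaded ones, while the alpha share was below the 39.2% and 37.7% of red cell barcodes in both libraries. Cells with 300 or more UMIs had alpha shares of 37.2% and 35.7% and Hbb-bt shares of 10.6% and 10.3%. The cells in between, 44 and 121 with 20 to under 300 UMIs, had the highest alpha shares, 49.5% (47.9% to 51.1%) and 52.4% (51.4% to 53.3%), together with Hbb-bt shares of 7.45% and 8.32%. Their alpha shares were near those of the least loaded red cell barcodes (46.5% and 51.9%), while their Hbb-bt shares were above those (1.57% and 2.62%).

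Alas2 outside red cells was sparse. Over all kept cells there were 225 ATRA+agonist UMIs and 919 DMSO vehicle UMIs, or 121 per 100000 hemoglobin UMIs in both libraries, against 103 and 112 in red cell barcodes. In cells below 20 hemoglobin UMIs there were 39 and 74 UMIs. This was 276 per 100000 (197 to 378) with ATRA+agonist and 162 (127 to 204) with vehicle, above the red cell value in both. MuSC-like cells held 7 of the 39 ATRA+agonist UMIs, from 953 hemoglobin UMIs. The counts per class were 0 to 23, too few to order classes by Alas2.

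Arterial endothelial-like cells, in which alpha globin would be looked for, were read on their own. This cluster was named from Hey1, Sox17, Gja5, Gja4, Efnb2, Dll4, Bmx, Sema3g and Stmn2, of which 6 of 9 marked it, and held 96 ATRA+agonist and 142 DMSO vehicle cells. In cells below 20 hemoglobin UMIs its mean was 1.83 (1.57 to 2.12) with ATRA+agonist and 5.78 (5.38 to 6.21) with vehicle, beside 1.73 and 5.25 in the largest endothelial-like cluster. Its alpha share there was 32.2% (25.3% to 39.7%) with ATRA+agonist and 32.4% (29.1% to 35.8%) with vehicle, no higher than the 34.0% and 33.6% of all cells below 20. An alpha globin signal above background was not detectable in these cells below 20 UMIs at this depth. That limit counts alpha UMIs too and leaves out cells rich in them, so these values cannot show whether such cells exist. Without the limit, the alpha share over all kept cells was 37.2% and 35.8%. Over all arterial endothelial-like cells, 70 of 231 hemoglobin UMIs were alpha with ATRA+agonist and 3349 of 7049 with vehicle. The vehicle share was thus above that of all kept vehicle cells, and the ATRA+agonist share below that of all kept ATRA+agonist cells. The vehicle value was carried by few cells, since 5 with 300 or more UMIs held 85.5% of that hemoglobin, and whether it came from the cells themselves was not tested. The 31 and 63 venous endothelial-like cells had means of 2.06 and 6.05 and alpha shares of 31.2% and 30.3%.

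The comparison between libraries was then made gene by gene and class by class. Over all kept cells the summed hemoglobin was 4367 CPM with ATRA+agonist and 16977 CPM with vehicle, a log2 ratio of -1.96 (-1.97 to -1.95). The 5 genes had like ratios: the log2 ratio was -1.99 for Hbb-bs, -1.96 for Hbb-bt, -1.91 for Hba-a1, -1.89 for Hba-a2 and -1.96 (-2.18 to -1.75) for Alas2. All 5 were at least 2-fold lower with ATRA+agonist, as were 7.00% of the 20524 genes with 10 or more UMIs. In cells below 20 hemoglobin UMIs the log2 ratio of the sum was -1.70 (-1.73 to -1.67), from 338 and 1098 CPM. The 4 hemoglobin genes had ratios between -1.76 and -1.68 there, while Alas2 had -0.93 (-1.53 to -0.35), so 4 of 5 members passed 2-fold, beside 7.43% of all genes. The genes were chosen with these values known, so the counts describe them and support nothing further. Red cell barcodes per other barcode had a log2 ratio of -1.62. The hemoglobin background of cells below 20 UMIs had -1.70 in CPM and -1.54 in UMIs per cell. Whether these differences are linked was not tested.

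Of 9 classes with at least 50 cells in each library, 8 had lower hemoglobin CPM with ATRA+agonist. Monocyte or macrophage-like cells had a log2 ratio of -2.57 (-2.60 to -2.54), from 3316 and 19739 CPM, endothelial-like cells -2.37, FAP-like cells -2.13 and T or NK cell-like cells -2.03. MuSC-like cells had -1.71 (3139 and 10264 CPM), but -0.17 (-0.21 to -0.13) when cells were assigned to classes by their own marker UMIs. Tenocyte-like cells had -1.52, smooth muscle or pericyte-like cells -1.39 and dendritic-like cells -1.10. Glial-like cells went against these, at 0.97 (0.93 to 1.01), from 12472 and 6347 CPM. In that class 2 of 114 ATRA+agonist cells, with 4960 and 2688 hemoglobin UMIs, held 97.0% of the hemoglobin, the next cell had 31, and without cells of 300 or more UMIs in either library the ratio was -1.84 (-2.03 to -1.64). The other 8 classes stayed below 0 in the alternatives run, but their values moved. T or NK cell-like cells had -0.71 without doublet removal, -3.02 without a maximum of genes and -4.57 when assigned by their own marker UMIs. Tenocyte-like cells had -0.91 without a maximum of genes, and dendritic-like cells -0.59 after thinning.

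With cells below 20 hemoglobin UMIs the classes drew together. All 9 were lower with ATRA+agonist. In CPM the log2 ratios ran from -1.78 (-1.93 to -1.62) in tenocyte-like to -1.51 (-1.65 to -1.39) in dendritic-like cells, with a median of -1.63. MuSC-like cells had -1.53, endothelial-like cells -1.60 and FAP-like cells -1.77. In CPM, endothelial-like and FAP-like cells did not overlap in their counting intervals (-1.65 to -1.55 against -1.83 to -1.71). In hemoglobin UMIs per cell their order turned around, with -1.63 in endothelial-like and -1.47 in FAP-like cells. On that scale the 9 classes ran from -1.63 in endothelial-like to -1.39 in MuSC-like cells. Tenocyte-like cells had -1.40 and dendritic-like cells -1.48, so the order of the classes depended on the scale. The hemoglobin genes were at least 2-fold lower in each of the 9 classes. Of the members with 10 or more UMIs over all kept cells of a class, 5 of 5 passed 2-fold in 7 classes, 4 of 4 in T or NK cell-like cells and 0 of 5 in glial-like cells. The share of all tested genes past the same limit was 4.04% in endothelial-like, 5.41% in FAP-like, 3.66% in MuSC-like, and 8.26% in tenocyte-like cells. In the smooth muscle or pericyte-like class it was 5.50%. It was 11.3% in glial-like, 3.76% in monocyte or macrophage-like, 3.08% in dendritic-like and 6.16% in T or NK cell-like cells. In unnamed cells, where 5 of 5 passed, it was 6.69%. B cell-like cells (648 and 11) and muscle fiber-like cells (256 and 1) were not compared. The endothelial-like cluster with most ATRA+agonist cells held 1587 of 2565 of them and 749 of 2946 vehicle cells, and that with most vehicle cells, led by interferon-response genes, held 80 and 1094. Below 20 UMIs the means of these clusters were 1.73 and 1.95 with ATRA+agonist and 5.25 and 5.49 with vehicle, and the log2 ratio below 20 UMIs was -1.59 in the first and -1.53 in the second.

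**Figure D4:**
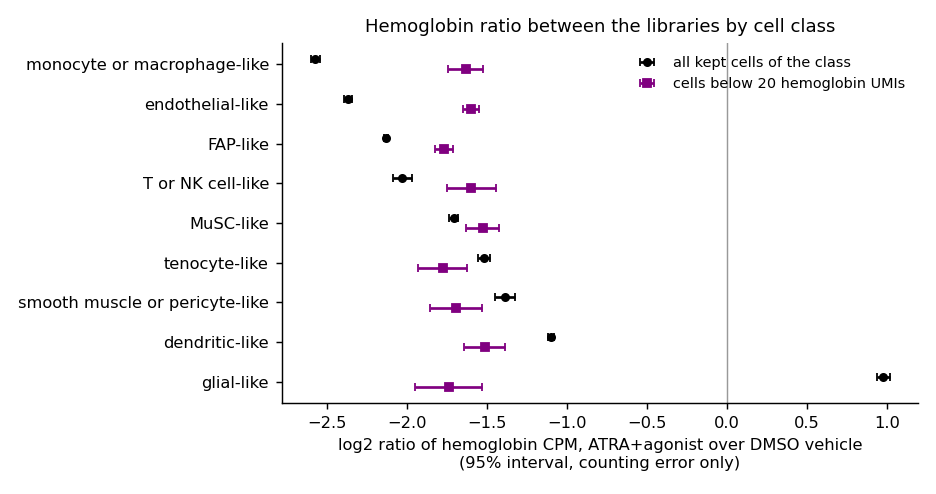
Log2 ratio of summed hemoglobin CPM, ATRA+agonist over DMSO vehicle (horizontal axis), with 95% counting intervals, for all kept cells of a class (black circles) and for its cells below 20 hemoglobin UMIs (purple squares). The circles spread from -2.57 in monocyte or macrophage-like to 0.97 in glial-like cells, and the squares lie between -1.78 and -1.51.

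The study removed cells with 0.25% or more of their UMIs from Hbb- genes, and this limit fell unevenly on the classes. Of the endothelial-like cells 5.85% were over it with ATRA+agonist and 23.5% (22.0% to 25.1%) with vehicle. The shares were 1.46% and 5.52% for FAP-like, 1.44% and 4.51% for MuSC-like, and 0.610% and 6.00% for tenocyte-like cells. They were 3.00% and 11.6% for smooth muscle or pericyte-like cells. In the ATRA+agonist library 11.3% of muscle fiber-like cells were over the limit. The class with the highest mean hemoglobin per cell, dendritic-like, lost 4.26% and 6.37%.

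**Figure D5:**
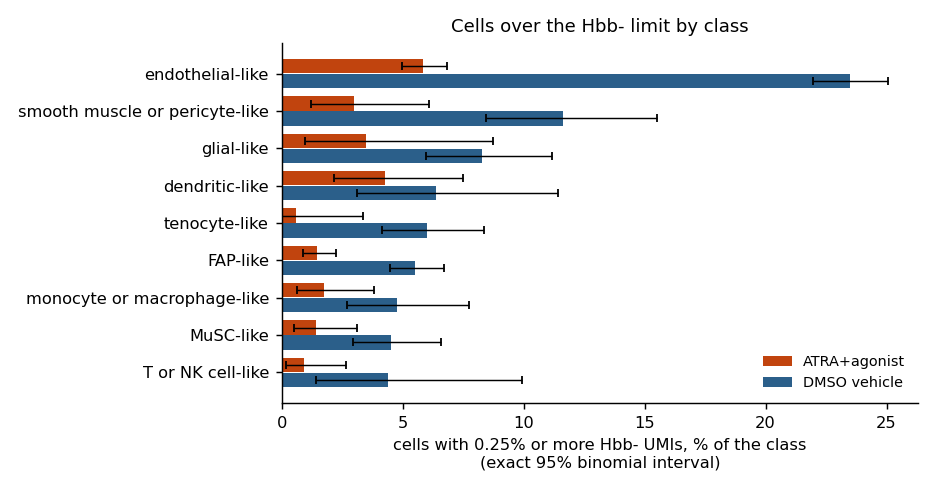
Share of kept cells of each class with 0.25% or more Hbb- UMIs (horizontal axis, percent, from 0), with exact 95% binomial intervals, in the 2 libraries. Endothelial-like cells of the DMSO vehicle library stand highest at 23.5%, and the vehicle bar is the longer one in each of the 9 classes.

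Shallow cells passed this limit with few hemoglobin UMIs. Of all kept cells over it, 66.5% with ATRA+agonist and 76.1% with vehicle held fewer than 20 hemoglobin UMIs, with medians of 3 and 6 and a median total of 685 and 794.5 UMIs. The clearest case was 1 shallow endothelial-like cluster, with a median total of 734 and 768.5 UMIs per cell, where 16.5% (13.9% to 19.3%) and 58.7% (55.4% to 61.9%) of cells were over the limit, and 95.3% and 97.5% of those held fewer than 20. In the largest endothelial-like cluster 1.39% and 8.28% were over it. Among FAP-like cells over the limit, 5.26% and 13.8% held fewer than 20, so there it met mainly loaded cells. Cells under the limit still held 2.00 and 5.91 hemoglobin UMIs on average. The log2 ratio among them was -1.60 (-1.63 to -1.57), from 331 and 1003 CPM, and ran from -1.77 in tenocyte-like to -1.40 in endothelial-like cells over the 9 classes.

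Other transcripts of red cells were read from red cell barcodes. Apart from hemoglobin, 255 genes had at least 50 UMIs there and a share of non-hemoglobin UMIs at least 4-fold that of other barcodes. Among the 10 with most UMIs were the mitochondrial transcripts mt-Co3, mt-Atp6, mt-Co1 and mt-Co2, and Alas2, Ftl1 (the light chain of the iron store ferritin), Bpgm (which makes 2,3-bisphosphoglycerate, the regulator of oxygen affinity), Mkrn1 and Ubb (ubiquitin). Alas2 made up 23041 of every 1000000 non-hemoglobin UMIs of red cell barcodes with ATRA+agonist and 20896 with vehicle. Bpgm made up 16984 and 15715. The following values are on this per 1000000 non-hemoglobin scale.

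Of the 9 listed genes of heme synthesis, Alas2 and Fech stood out in red cell barcodes. Fech, which inserts iron into the porphyrin ring, was at 3592 and 4083, whereas the housekeeping first enzyme Alas1 was at 11.6 and 11.3, below its level in cells under 20 hemoglobin UMIs (32.7 and 40.2). In all, 3 of 9 genes with ATRA+agonist and 5 of 9 with vehicle were at least 4-fold above other barcodes, as were 2.46% and 2.85% of all 11481 genes with 10 or more UMIs in red cell barcodes. Of the 16 genes of the red cell membrane and its skeleton, 13 and 14 were. Slc4a1 (the anion exchanger band 3) was at 431 and 797, and Epb41 (protein 4.1) at 6091 and 7045. Aqp1, a water channel that endothelium also expresses, was at 399 and 366, below the 515 and 481 of cells under 20 hemoglobin UMIs. Of the 25 measured regulators and late erythroid genes, 18 and 19 passed 4-fold. Genes of early erythroid cells were near 0: Klf1, the master regulator of beta globin, had 1 and 40 UMIs in red cell barcodes, Gata1 3 and 39, and the erythropoietin receptor Epor 0 and 17. Tfrc, the transferrin receptor lost during maturation, had 12 and 320 UMIs (17.4 and 109). Of the 6 other globin genes measured, Hbq1a and Hbq1b (theta globin) had 230 and 186 UMIs with ATRA+agonist and 525 and 1062 with vehicle, and the embryonic Hbb-y had 4 and 11.

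Loaded cells carried erythroid transcripts as well, at a lower level than red cell barcodes. Slc4a1 was at 39.7 and 21.8 per 1000000 non-hemoglobin UMIs in cells with 300 or more hemoglobin UMIs, and at 0.0720 and 0.121 in cells below 20. Bpgm was at 218 and 244 against 12.4 and 16.8, and Fech at 143 and 132 against 26.9 and 26.1.

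In cells below 20 hemoglobin UMIs the other erythroid lists did not differ between libraries as hemoglobin did. Beside the hemoglobin list (median log2 ratio -1.69), the medians were -0.04 for 9 heme synthesis genes, -0.04 for 12 membrane genes and -0.02 for 24 regulators and late erythroid genes, and the median over all tested genes was -0.02. Bpgm, with a high level in red cell barcodes, was lower with ATRA+agonist at -0.44 (-0.61 to -0.27). Others that nonerythroid cells express were near 0, such as Bnip3l at 0.00 (-0.05 to 0.06) and Fech at 0.04 (-0.08 to 0.17). Of 10 genes of hemoglobin and heme clearance, the intervals of 4 lay below 0 and that of 1 above it, beside 26.7% and 22.5% of all 20386 genes compared. Haptoglobin (Hp), which binds free hemoglobin and which neutrophils also express, was at 9.21 and 33.7 (-1.87, -2.04 to -1.71). Hmox1, which breaks heme down, was at 46.9 and 88.9 (-0.92, -1.004 to -0.84), and the hemoglobin-haptoglobin receptor Cd163 at 14.7 and 15.3 (-0.06, -0.23 to 0.10). These levels are pooled over classes whose cell numbers differed between the libraries, and no values by class are given. An unnamed cluster with Hp among its 10 leading genes held 26 ATRA+agonist and 173 DMSO vehicle cells. Whether the mix of cells sets these ratios was not tested. Genes of other blood elements gave medians of 0.66 for 9 platelet genes and 0.16 for 7 neutrophil granule genes in cells below 20 hemoglobin UMIs. The neutrophil granule genes were spread widely there, from -0.88 for Retnlg to 2.21 for Camp. Their summed level was 459 with ATRA+agonist and 406 with vehicle in these cells. Over all barcodes other than red cell barcodes it was 421 and 5204. In red cell barcodes 1 and 0 of 10 platelet genes and no neutrophil granule gene reached 4-fold, with summed levels of 55.0 and 66.3 and of 1028 and 2112.

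Lastly, genes were ranked by how closely their level followed that of hemoglobin over the 22 class by library groups with at least 50 cells, as a description over points that share libraries and depth. Among 15392 genes with 100 or more UMIs, Alas2 was the first, with a Pearson r of 0.94 on log2(CPM + 1). The next, Apol11b, was at 0.75, followed by 2810407A14Rik, Jdp2, Ube2l6, Ids, B230206L02Rik, Ssr3, Gm21859 and Vim at 0.74 to 0.69. Ube2l6, a ubiquitin-conjugating enzyme on the late erythroid list, was itself high in red cell barcodes (10830 and 13164 per 1000000 non-hemoglobin UMIs). It was also present in cells below 20 hemoglobin UMIs, at 22.6 and 26.9. In cells below 20 hemoglobin UMIs, where Alas2 had 112 UMIs in these groups, its r was 0.38 and its rank 363. There Nqo1 was first at 0.66, and the following 9, C530005A16Rik, Ubd, Capn11, Tmem267, Vamp9, Gm26812, Gbp10, Gm26838 and Ppp1r36, were between 0.64 and 0.56.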

How the data were processed

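The authors processed 10x 3′ libraries with Cell Ranger 7.2.0 (per the file headers) against mm10 and deposited raw UMI counts per gene and barcode, 1 matrix per library. No other column was left unused (0). Gene positions came from GENCODE M21 (GRCm38). Cells were filtered as the report states. Doublet scores were rebuilt, since calls of the authors were not used here. Cells were clustered without hemoglobin, erythroid, mitochondrial and ribosomal genes and named from fixed markers. The members, lists and named genes were chosen with earlier results of these data known. Naming limits and the limits of 20 and 300 UMIs were set after the data were seen. Named genes were the 5 members, the listed genes, the 10 leading genes of red cell barcodes and the 10 genes most like hemoglobin. Some of these genes are not reported here. CPM ratios used genes with 10 or more UMIs. With 1 library per group no test was run. Alternatives changed the red cell limit, cell filters, doublet removal, scale, Hbb- limit, cluster resolution and the assignment of cells to classes. Python 3.11.15, numpy 2.4.6, pandas 2.3.3, scipy 1.17.1, scikit-learn 1.9.0, igraph 0.11.9 and matplotlib 3.10.9 were used.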

Additional observations from a re-analysis of the deposited data

Results flagged for a closer look

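Glial-like cells stood apart from the other classes. Their summed hemoglobin gave a log2 ratio of 0.97 (ATRA+agonist over DMSO vehicle), while the other 8 classes lay between -2.57 and -1.10. The difference was not tested, since each group is 1 library. The value rests on 2 ATRA+agonist cells with 97.0% of the hemoglobin of that class, and in cells below 20 hemoglobin UMIs it was -1.74.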

How the results depend on the processing

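No paired analysis was possible because each group is 1 library. Red cell limits of 10%, 25% and 75% gave 99.8%, 99.6% and 96.4% of hemoglobin in red cell barcodes with ATRA+agonist, 99.8%, 99.6% and 95.3% with vehicle, and 48.2%, 47.8% and 45.3% red cell barcodes with vehicle. The log2 ratio outside red cells (-1.96) stayed negative in every alternative run. It was -1.89 without a maximum of genes, -2.07 without a minimum, -2.07 without doublet removal, -1.60 under the Hbb- limit of the study, -1.65 with the 10% red cell limit and -1.98 per non-hemoglobin UMI. It was -1.90 after thinning, -1.83 per cell, -1.99 for Hbb and -1.90 for Hba genes. Leaving out the 1% of cells with most hemoglobin gave -4.00, since this removes all loaded ATRA+agonist cells but not all loaded vehicle cells. Alternatives added after seeing the data gave -1.70 below 20 UMIs and -1.32 for the median per cell. In the order 10% red cell limit, no doublet removal, top 1% left out, study limit and below 20 UMIs, the alpha share (37.2% and 35.8%) was 36.1%, 36.7%, 34.8%, 35.7% and 34.0% with ATRA+agonist, and 38.8%, 35.3%, 40.1%, 35.4% and 33.6% with vehicle. Alas2 per 100000 hemoglobin UMIs (121 in both) was, in the same order, 213, 117, 273, 275 and 276 with ATRA+agonist and 137, 132, 104, 166 and 162 with vehicle. Limits of 0.1%, 0.5% and 1% Hbb- UMIs, and 0.25% on all hemoglobin genes, left 11.8%, 2.47%, 1.99% and 6.76% of ATRA+agonist and 42.2%, 11.6%, 7.76% and 27.0% of vehicle barcodes over the limit. Glial-like cells turned negative in 6 settings: -0.33 without a maximum of genes, -0.71 without doublet removal, -1.66 under the study limit, -2.17 with the 10% red cell limit, -3.42 without the top 1% and -1.74 below 20 UMIs. Of 150 class ratios over 17 settings, 139 were below 0. Except where stated, the cause was not tested. Only the difference between 2 libraries was measured, and low Alas2 counts limit its class values.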
